A study of Saccharomyces cerevisiae with 12 samples.

Results

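The genes described here are those of chromosome I, the smallest chromosome of budding yeast, measured by RNA sequencing in 4 strains of a haploid line that lacks the chromosomal ULP2 gene. Members were the entries of the count matrix whose systematic names begin with YAL or YAR, which stand for the left and right arm of chromosome I, without 6 genes (YAL005C, YAL025C, YAL038W, YAL040C, YAL054C and YAR071W). This gave 113 of the 7108 named genes in the matrix, and 97 of the 113 passed the filter on low counts and are among the 6372 genes tested. The other 16 had a mean of at most 5.67 counts in every strain, and 4 of them had no count in any library. Of the 113 members, 88 were found in the RefSeq annotation of the R64 genome build. The members had been chosen by a measured value, their counts, which were higher in nascent ulp2Δ cells than in WT, so every value of that comparison, and of the comparisons with the nascent cells as baseline, is given as a description with no test.

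All 12 libraries came from derivatives of strain MHY1379 with the chromosomal ULP2 deletion, grown exponentially in rich medium (YPD), with 3 libraries per group. In the WT group the deletion was covered by ULP2 on a URA3-marked plasmid (YCplac33-ULP2). Nascent ulp2Δ cells, of low passage, had lost that plasmid on medium with 5-fluoroorotic acid (FOA). In the study's scheme, cells without the plasmid were then transformed with YCplac33, either empty or carrying ULP2, before long passage. The evolved groups, ulp2Δ 500G #6 and ulp2Δ 500G #9, were each a single line passaged for 500 generations after plasmid loss, both from the same founding colony. By the study's description both carry a cysteine-to-serine change in Uba2, a subunit of the SUMO-activating enzyme, and only a single line also an alanine-to-proline change, but the labels do not tie these genotypes to the line numbers. The replicates carry numbers but are not said to come from separate cultures, so p-values measure the spread between these libraries. Per library, 20467216 to 30719553 reads were assigned to genes, and ULP2 itself had 8519 to 10694 counts under WT and 3 to 20 in the 9 other libraries, as labelled.

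Ulp2 is a nuclear protease that trims chains of SUMO, a small protein attached to other proteins, and cells without it grow poorly and distribute chromosomes badly. In a haploid yeast cell that keeps an extra copy of a chromosome, transcripts of most genes on it rise about in proportion to the copy number, because most yeast genes have no feedback that senses their own dose. Copy number was not measured in these files, and more copies per cell in all cells cannot be told apart from an extra copy in a share of the cells.

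In nascent ulp2Δ cells the chromosome was higher as a whole. The members took up 1.11 to 1.16% of the counts in the WT libraries, 2.03 to 2.05% in the nascent ones, 1.19 to 1.22% in line #6 and 1.11 to 1.13% in line #9. A shift of the chromosome was then computed in each library. It was the median over the 97 members of the log2 difference from the WT mean, less the same median over 5590 genes. These genes lie on the other chromosomes, with chromosome XII and the mitochondrial genome left out. The 6 chromosome XII genes among the complex partners below had a median log2 fold change of 0.58 in nascent cells, so chromosome I need not be the only one that rose. The 3 nascent libraries lay at 0.83, 0.86 and 0.79, which corresponds to a 1.78-fold ± 0.05 (SD, n = 3) level. The WT libraries lay between -0.03 and 0.03, the line #6 libraries between 0.04 and 0.09 and the line #9 libraries between 0.01 and 0.06. The nascent libraries thus stood apart from the other 9, and the libraries of both evolved lines lay next to WT.

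**Figure D1:**
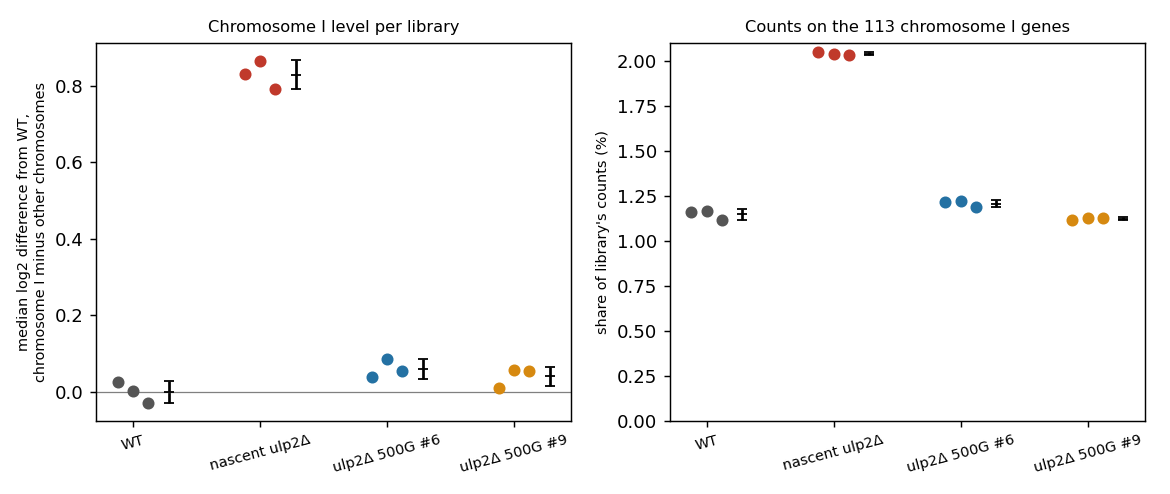
Left, median log2 difference of the 97 chromosome I genes from the WT mean, less that of genes off chromosomes I and XII, per library. Right, share of each library's counts on the 113 genes, in percent. Points are libraries, and the black marks give the mean and SD of 3. The nascent libraries lie at 0.79 to 0.86 on the left and 2.03 to 2.05% on the right, apart from the other groups.

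Gene by gene, the log2 fold change of nascent ulp2Δ over WT had a median of 0.73 over the 97 members, with quartiles of 0.54 and 1.21 and a range from -0.56 to 4.85. Over the genes off chromosomes I and XII the median was -0.09. The spread around the median was about the same in both sets, with an interquartile range of 0.67 for the members and 0.63 for the others. Of the 97 members, 92 lay above the median of the other chromosomes, where 55.1% of all tested genes do, and 55 were between 1.5-fold and 2.5-fold higher than WT. The 3 nascent libraries lay above all 3 WT libraries for 84 members, against 35.5% of all tested genes, and below them for 4, against 40.5%. These counts follow from how the members were chosen. The left arm (71 members) had a median of 0.73 and the right arm (26 members) one of 0.75.

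Members were then split by their distance from this median. With a limit of 0.5 on the log2 scale, 63 followed the chromosome, 11 lay below and 23 lay above. The same limit around their own median leaves 13.1% of the genes off chromosomes I and XII below and 16.2% above, beside 11.3% and 23.7% of the members. No annotation entry was found for 7 of the 23 members above, 8 of the 63 that followed and 1 of the 11 below. Overlap with other genes was not checked for these. Of the 23 members above, 10 had a mean under 50 counts in WT, and among the 79 members with at least 50, 13.9% lay below and 16.5% above. On chromosome XII, also around its own median, the shares were 14.7% and 15%. Just inside the lower limit were SEN34 (0.28) and ADE1 (0.28), and just outside it YAR009C (0.23) and FUN14 (0.21). Just inside the upper limit were OAF1 (1.21) and PAU8 (1.22), and just outside it YAL031W-A (1.24) and YAR075W (1.26). All 3 nascent libraries were past the limit for 7 of the 11 genes below and for 17 of the 23 above.

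FUN12 (0.87) and PMT2 (1.20) are examples of the 63, and PMT2 lay close to the upper limit. FUN12, which encodes the translation initiation factor eIF5B, had 18083, 15838 and 19878 WT counts and 29275, 39505 and 35155 in nascent cells. Its level was 746 ± 24.3 CPM (counts scaled to the library size; SD, n = 3) in WT, 1363 ± 67.6 in nascent cells, 719 ± 89.6 for line #6 and 675 ± 44.5 for line #9. PMT2, an O-mannosyltransferase of the endoplasmic reticulum, had 4388, 4173 and 4383 counts in WT and 9578, 11877 and 10081 in nascent cells. Both genes therefore had nascent libraries above all others and overlapping levels in WT and line #6. Against WT, PMT2 was at -0.11 in line #6 and -0.15 in line #9 (edgeR quasi-likelihood test, adjusted p = 0.043 and 0.012). TFC3, a subunit of the RNA polymerase III factor TFIIIC, went from 92.0 ± 3.42 to 152 ± 0.323 CPM, a log2 fold change of 0.72 that was next to the median of the chromosome.

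The genes that encode subunits of protein complexes give a comparison within each complex, since the partners lie on other chromosomes. Partners on chromosome XII were kept apart: the 6 such partners, in 5 complexes, had a median log2 fold change of 0.58 in nascent cells (0.24 to 0.92). The list of complexes was chosen and need not be complete. The listed CORVET subunits VPS11 and VPS18 were not found under these names, so they are in none of the counts of partners. Its 16 complexes had 17 subunits on chromosome I, with a median log2 fold change of 0.56 in nascent cells. Their 74 partners off chromosomes I and XII had a median of -0.18. The chromosome I subunit was above the median of these partners in all 16 complexes, by 0.38 to 1.34 with a median of 0.78, as the choice of the members on this comparison would set. The widest gap was in the Nem1-Spo7 phosphatase, which acts on the lipin Pah1: SPO7 was at 0.82 and NEM1 at -0.51. In COMPASS, the histone H3 lysine methyltransferase, SWD1 was at 1.02, its 6 partners off chromosome XII were between -0.37 and 0.31, and BRE2, on chromosome XII, was at 0.67. RFA1, the large subunit of the single-strand DNA binding factor RPA, was at 0.67, with its 2 partners at -0.38 and -0.21. The narrowest gap was in RNase P and RNase MRP, where POP5 was at 0.14, 8 of 9 partners off chromosome XII were lower, and RMP1, on chromosome XII, was at 0.73. MDM10, part of the tether between mitochondria and endoplasmic reticulum called ERMES, was at 0.12, also below the chromosome, with partners at -0.61 and -0.15 and, on chromosome XII, MMM1 at 0.24. In the evolved lines the same subunits had medians of 0.09 (line #6) and -0.06 (line #9), and the partners -0.05 and -0.01.

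**Figure D2:**
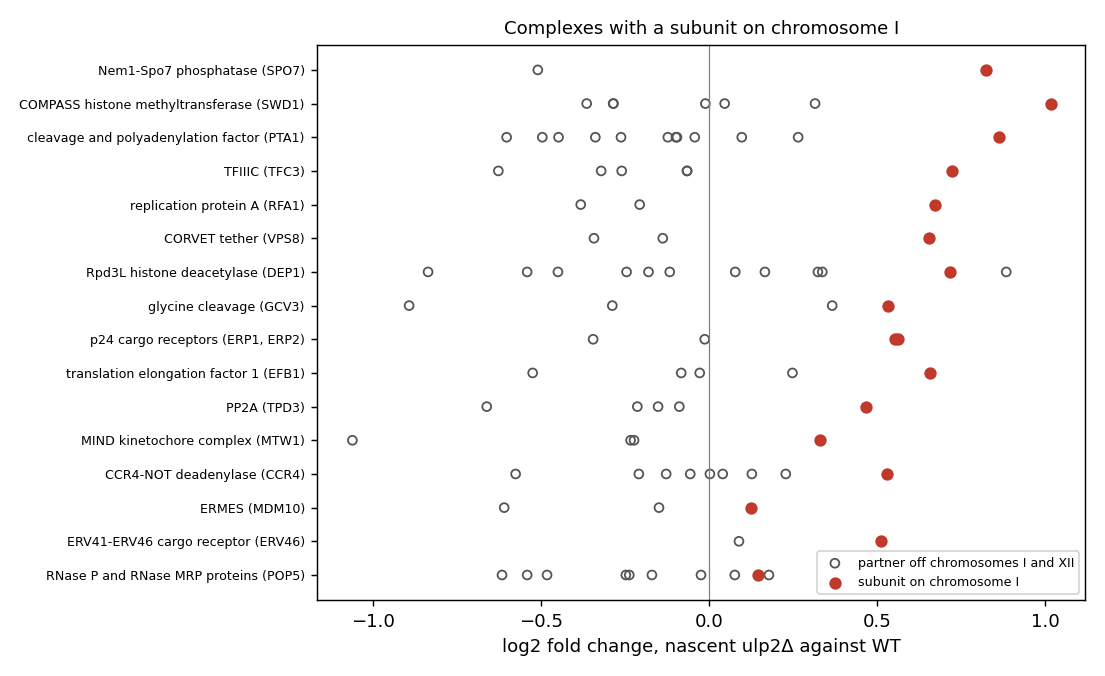
Log2 fold change of nascent ulp2Δ over WT for the subunits of 16 complexes, 1 row per complex. Filled points are subunits encoded on chromosome I and open points their partners off chromosomes I and XII. The filled points have a median of 0.56 and the open points one of -0.18, with the smallest gap for POP5.

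Paralogs were compared in the same way, over a chosen list that need not hold every such pair. It had 10 pairs with 1 copy on chromosome I and the other on chromosome IV or XV. The chromosome I copies had a median of 0.86 and the other copies one of 0.08. The chromosome I copy was the higher of the pair in 9 of 10, as the choice of the members on this comparison would set. Among the 9 was GDH3, at -0.38 beside GDH1 at -0.85, with both copies below WT. PMT2 was at 1.20 and PMT3 at -0.21. MYO4, a type V myosin that carries mRNA into the bud, was at 0.84 and MYO2 at -0.21. The exception was SNC1, a vesicle SNARE, at 0.53 beside SNC2 at 0.69.

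By function, members of the secretory pathway and organelle contacts (16 genes) had a median of 0.61 with 1 below and 2 above the limits. Genes of DNA repair, replication and chromatin (6 genes, from SAW1 at 0.60 to SWD1 at 1.02) all lay within them. Among 9 genes of mitosis, cytokinesis and polarity, KIN3 was below and CDC15 above. The 9 metabolic genes had 2 below, 5 within and 2 above. AIM1 was also on that list, but its name was not found among the gene names used, so it is not counted. The 8 genes of the cell wall and of families found near chromosome ends had 1 below, 3 within and 4 above, with a median of 1.33.

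Of the genes below the chromosome, 4 had nascent libraries that were all lower in CPM than every WT library. GDH3 (YAL062W, R64 chromosome I, 31567 to 32940) encodes a NADP-dependent glutamate dehydrogenase used mainly in slow or respiratory growth, and had the highest WT level per length of all tested members with annotated coordinates. Its counts were 41041, 38852 and 41385 in WT and 29685, 36040 and 32564 in nascent cells, or 1690 ± 117 and 1294 ± 29.0 CPM. Line #6 had 784 ± 18 CPM and line #9 1095 ± 47.0, so GDH3 was lower than WT in every library without ULP2. Its paralog GDH1 on chromosome XV was at -0.85 in nascent cells.

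KIN3 (YAR018C, 170396 to 171703), a NIMA-family protein kinase, had 76.8 ± 2.87 CPM in WT, 68.1 ± 5.03 in nascent cells, 36.6 ± 4.11 for line #6 and 37.8 ± 2.21 for line #9. Its nascent libraries had 1560, 2082 and 1556 counts, and those of the WT 1827, 1618 and 2106. CDC15 (YAR019C, 172211 to 175135), the next gene along and a kinase of the mitotic exit network, lay above the chromosome: 64.5 ± 0.795 CPM in WT, 171 ± 3.60 in nascent cells, 86.1 ± 4.04 for line #6 and 75.1 ± 2.59 for line #9. These neighbours, both kinase genes read from the same strand, thus lay on opposite sides of the chromosome's median.

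SEO1 (YAL067C, 7235 to 9016), a putative permease close to the left end, had 566, 547 and 691 counts in WT and 394, 602 and 519 in nascent cells. It then had 99, 76 and 79 counts in line #6 and 107, 173 and 129 in line #9, all below the WT and nascent values. The fourth such gene, YAL037C-B, is a reading frame with no entry in the annotation used, and had 102, 83 and 102 counts in WT and 70, 84 and 51 in nascent cells.

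BOL3 and AIM2 lay close to the WT level in spite of their position. BOL3, which acts in mitochondrial iron-sulfur cluster delivery, had 50.5 ± 4.07 CPM in WT and 47.4 ± 3.49 in nascent cells, a log2 fold change of -0.09. AIM2, a hydrolase-like protein, had 198 ± 6.43 and 194 ± 1.73 CPM, a log2 fold change of -0.03. Their libraries overlapped between the 2 groups. FUN14, a mitochondrial outer membrane protein gene, was at 0.21 in nascent cells, 0.22 for line #6 and 0.19 for line #9, so that its level was about the same in all 3 strains without ULP2. YAR009C is a Ty1 transposon reading frame, and 92.0% of its windows of a read's length occur again elsewhere in the genome, so its reads cannot be assigned to chromosome I.

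**Figure D3:**
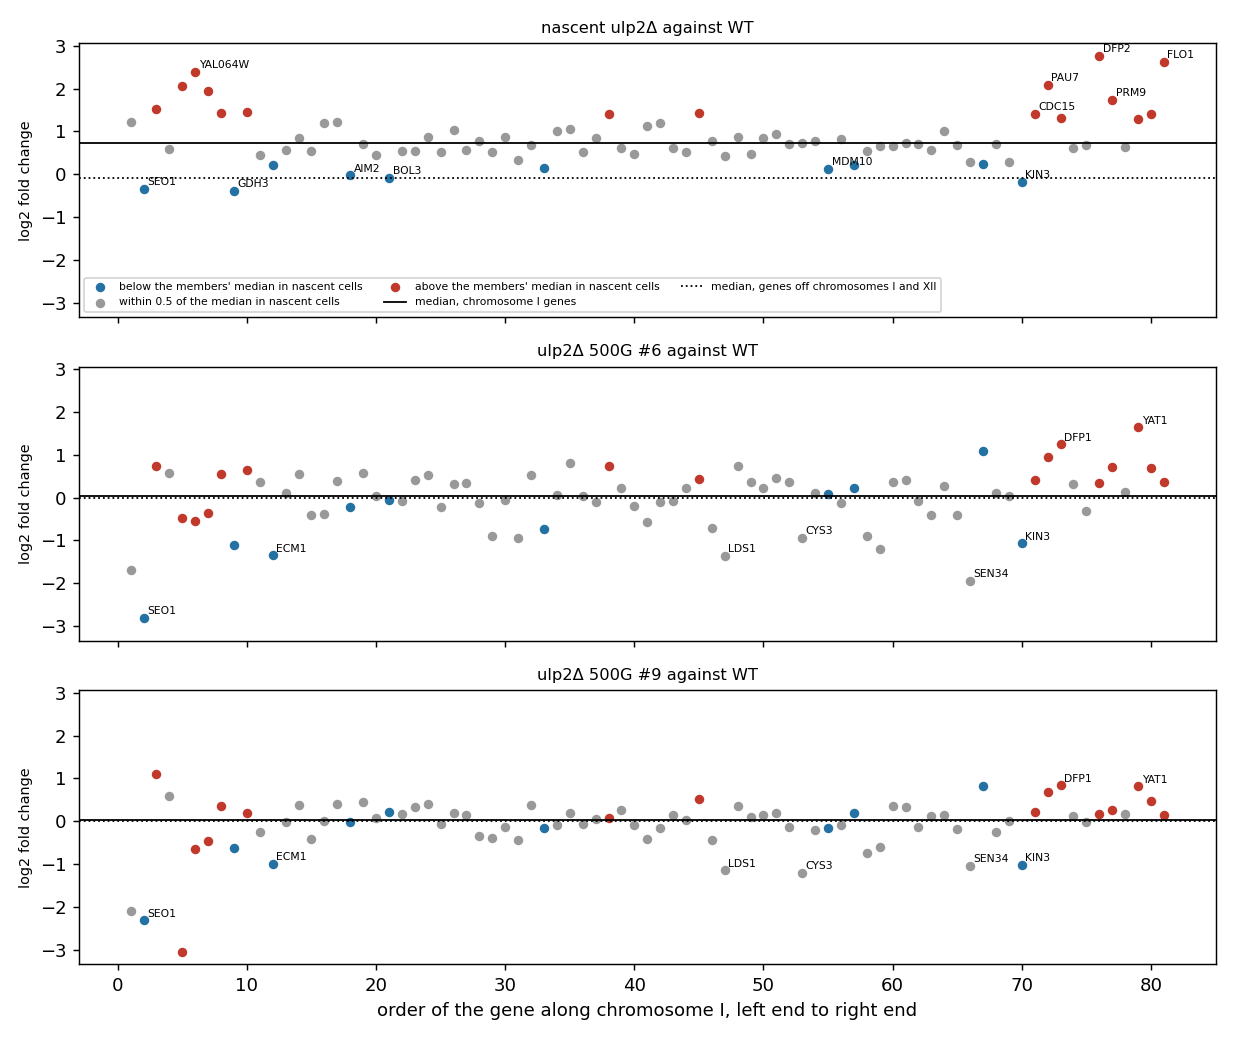
Log2 fold change over WT of the 81 tested and annotated members in their order along the chromosome, for nascent ulp2Δ (top), line #6 (middle) and line #9 (bottom). Colours give the position of each gene relative to the members' median in nascent cells (blue below, grey within 0.5, red above) and are the same in all panels. In nascent cells the red points gather at both ends, and in the lines the medians are 0.03 and 0.02.

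The genes above the chromosome were not spread evenly along it. In windows of 10 or 11 consecutive annotated genes, the outermost windows had medians of 1.45 (PAU8 to BDH2) and 1.41 (CDC15 to FLO1), and the 6 inner windows lay between 0.56 and 0.80. Within 30 kb of an end, 6 of 9 tested members lay above and 1 below, with a median of 1.53. Among the 72 farther in, 10 lay above and 9 below, with a median of 0.68. The end genes were also the weakly expressed ones, with a median WT count of 22.7 against 1806, and across the chromosome the 18 members under 50 counts in WT had a median of 1.25, while those with 50 to 1000, 1000 to 3000 and over 3000 counts had medians of 0.67, 0.71 and 0.59. The part of low counts in the position of these genes was not tested.

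FLO1 (YAR050W, 203403 to 208016) encodes the cell wall adhesin that makes cells flocculate. It had 408, 404 and 439 counts in WT, 2650, 2999 and 2461 in nascent cells, 551, 558 and 503 for line #6 and 440, 598 and 522 for line #9. That is 17.4 ± 0.944, 107 ± 8.81, 22.5 ± 1.74 and 19.2 ± 0.834 CPM, so the nascent level was 6.15-fold that of WT. The evolved lines lay far nearer to WT. Line #6 was above WT by a log2 of 0.37 (edgeR quasi-likelihood test, adjusted p = 0.00032) and line #9 by 0.14 (adjusted p = 0.10). FLO9 (24000 to 27968), a flocculin near the other end, had 24.96 ± 1.40 CPM in WT, 67.7 ± 2.43 in nascent cells, 36.9 ± 2.97 for line #6 and 31.99 ± 1.89 for line #9. The flocculins have internal repeats and share sequence, and 36.9% of the windows of FLO1 and 46.0% of those of FLO9 occur more than once in the genome, so reads of these genes may be assigned to the wrong copy.

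The DUP240 family, membrane proteins that lie in tandem on the right arm, varied widely. DFP2 (186321 to 186545) had 62, 67 and 112 counts in WT and 489, 695 and 541 in nascent cells, with 83 to 116 in the evolved lines. PRM9 (186836 to 187732) had 138, 151 and 210 counts in WT and 553, 627 and 554 in nascent cells. DFP1 (179281 to 179820) had 323, 266 and 309 in WT, 725, 889 and 753 in nascent cells, 692, 753 and 676 for line #6 and 487, 684 and 656 for line #9, and was the one of the 3 whose level in line #6 overlapped the nascent one. UIP3 (0.61), MST28 (0.64) and KTD1 (0.67), of the same family, followed the chromosome. Of the windows of PRM9 and MST28, 22.8% and 39% occur more than once in the genome, so their reads may be assigned to the wrong copy. For DFP1, DFP2, UIP3 and KTD1 no window is repeated. PAU7, a seripauperin gene, had 77, 76 and 84 counts in WT and 262, 455 and 358 in nascent cells.

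Neighbouring dehydrogenase genes on the left arm behaved differently. BDH2 (33448 to 34701), a putative butanediol dehydrogenase, had 428 ± 19.1 CPM in WT, 1180 ± 23.0 in nascent cells, 668 ± 36.2 for line #6 and 488 ± 7.72 for line #9. BDH1 (35155 to 36303), the butanediol dehydrogenase that makes 2,3-butanediol from acetoin, had 780 ± 30.6, 1072 ± 16.1, 1010 ± 26.1 and 659 ± 23.6 CPM. The log2 fold changes in nascent cells were 1.46 and 0.46, while GDH3, just before BDH2, was at -0.38. These 3 consecutive genes thus lay below, within and above the limits around the chromosome's median.

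YAT1 (190193 to 192256), the mitochondrial outer carnitine acetyltransferase, had 16538, 16912 and 14776 counts in WT, 37237, 45938 and 41887 in nascent cells, 51717, 57152 and 43108 for line #6 and 23974, 35929 and 37312 for line #9. In CPM this was 676 ± 110, 1646 ± 42.5, 2110 ± 124 and 1186 ± 130, so line #6 lay above the nascent cells. SWH1, an oxysterol-binding protein, had 208 ± 1.68 CPM in WT and 553 ± 12.3 in nascent cells. FRT2 and ATS1 were at 1.40 and 1.42. The largest fitted value of all, 4.85 for YAL045C, came from a single library: its nascent counts were 551, 24 and 12, against 8, 2 and 11 in WT. YAL042C-A (31, 34 and 54 counts in WT, 173, 189 and 142 in nascent cells), YAL063C-A (a log2 fold change of 1.94) and YAR019W-A (1.78) are reading frames with few counts.

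**Figure D4:**
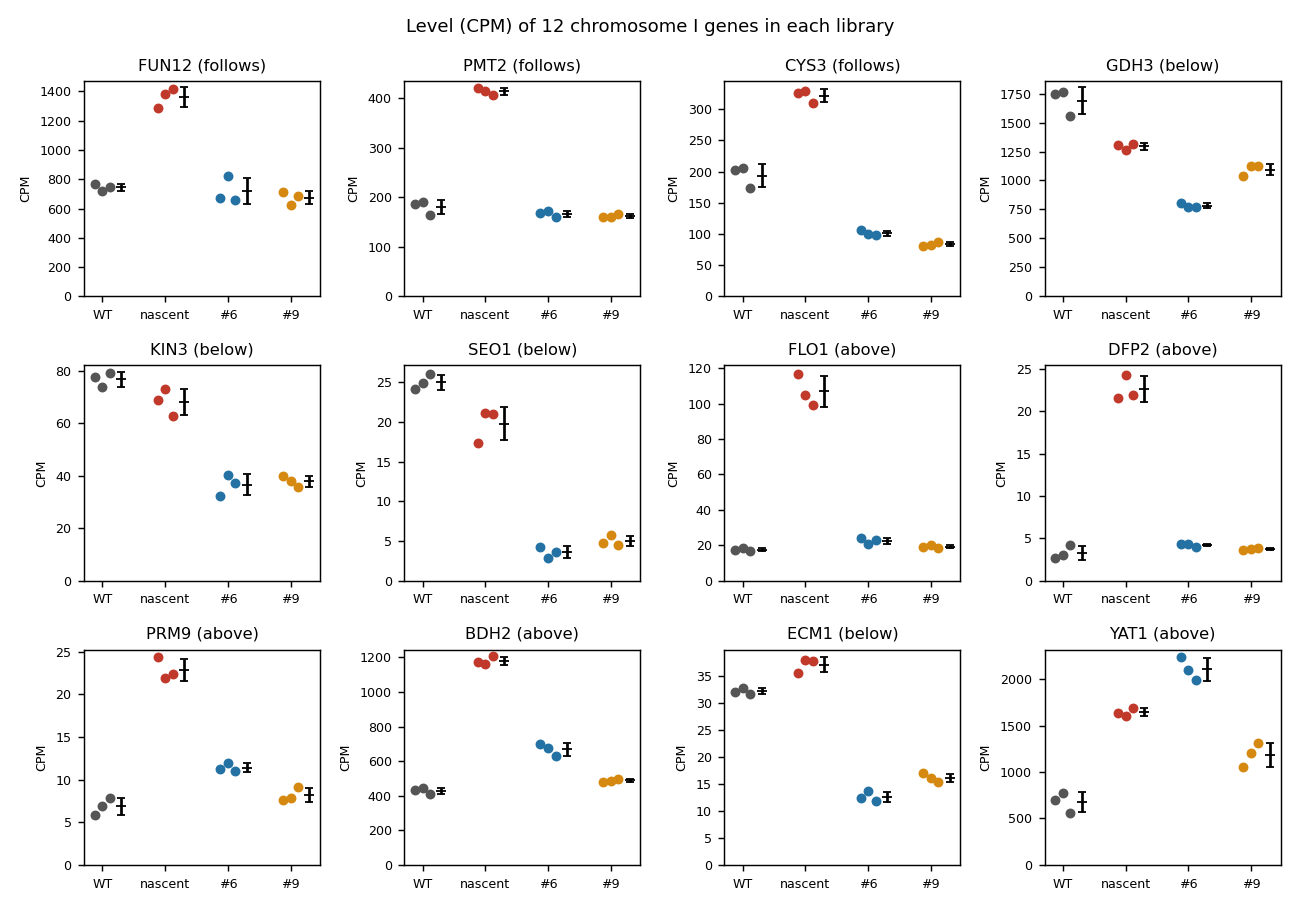
CPM of 12 chromosome I genes in each of the 12 libraries (points), with the mean and SD of 3 (black), on linear axes that start at 0. FUN12 and PMT2 are high in nascent cells only, CYS3 and ECM1 fall below WT in both lines, GDH3, KIN3 and SEO1 are never above WT on average, and YAT1 is highest in line #6.

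In both evolved lines the level of the chromosome lay near that of WT. Relative to nascent cells, the members shifted by -0.90 in line #6 and -0.91 in line #9 from the genes off chromosomes I and XII. All 3 libraries of line #6 lay below all nascent ones for 87 members and above them for 3 (YAT1, YAR009C and YAL016C-A). For line #9 these numbers were 84 below and 3 above (BOL3, YAR009C and YAL016C-A). Over all tested genes the ranges lay below for 40.2% and above for 41.1% in line #6, and below for 39.5% and above for 39.8% in line #9.

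Line #6 was then tested against WT, a comparison that shares the WT libraries with the one that chose the members but not the nascent ones. The members had a median log2 fold change of 0.03. With edgeR's quasi-likelihood test and Benjamini-Hochberg adjustment over all 6372 genes, 5 members were at least 2-fold higher and 9 at least 2-fold lower at an adjusted p under 0.05. This is 5.15% and 9.28% of the members, and over all tested genes the shares were 4.5% and 10.5%. Without the fold limit 38 members (39.2%) were higher and 26 (26.8%) lower, against 36.8% and 37.2% over all genes, and these shares were not tested against each other.

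Among the higher genes in line #6, YAT1 rose 3.12-fold (log2 1.64 ± 0.10 SE, adjusted p = 5.3e-10) and DFP1 2.37-fold (1.25 ± 0.08, adjusted p = 1.7e-09). YAL016C-A, a frame with no entry in the annotation used, rose from 20, 22 and 31 counts to 127, 146 and 149 (log2 2.54 ± 0.21, adjusted p = 2.8e-08). YAL042C-A rose by a log2 of 1.45 and the Ty1 frame YAR009C by 1.10 (0.998, short of 2-fold, when scaled by library totals). Below the 2-fold limit, GIP4, a regulator of the phosphatase Glc7, rose by 0.82 (adjusted p = 2.4e-10), PSK1, a PAS-domain kinase that senses nutrients, by 0.74 (9.5e-11), and BDH2 by 0.64 (2.2e-09).

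Among the lower genes in line #6, SEO1 fell 7-fold (log2 -2.81 ± 0.15, adjusted p = 1.9e-10). SEN34 (YAR008W, 158966 to 159793), a catalytic subunit of the tRNA splicing endonuclease, had 410, 328 and 430 counts in WT, 467, 555 and 466 in nascent cells and 119, 91 and 89 in line #6, and fell 3.86-fold (log2 -1.95 ± 0.14, adjusted p = 6.9e-09). LDS1, which acts in spore wall assembly, fell from 136, 128 and 171 counts to 48, 62 and 58 (-1.36 ± 0.17). GDH3 (-1.11), KIN3 (-1.07) and YAL037C-B (-1.43) fell too, and YAR075W, at 20, 7 and 24 counts in WT and 8, 2 and 5 in line #6, was the ninth. The call for YAR075W was lost in 3 of 18 alternatives, without WT library 1 or 3 or line #6 library 2 (adjusted p 0.00572 to 0.0797), and KIN3 was at -0.98 without line #6 library 1.

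Genes of translation and ribosome assembly had the lowest line #6 values of the function lists, with a median of -1.04 over 4 genes. EFB1 (YAL003W, 142174 to 143160), the exchange subunit of elongation factor 1, fell from 508 ± 21.1 to 223 ± 6.01 CPM (log2 -1.19 ± 0.04, adjusted p = 6.0e-13), with 335 ± 11.2 in line #9. Its intron holds a snoRNA gene, whose reads may be counted with it. ECM1 (YAL059W, 36509 to 37147), which acts in export of the large ribosomal subunit, fell from 752, 721 and 844 counts to 286, 371 and 255 (-1.35 ± 0.08, adjusted p = 2.7e-10). RBG1, a GTPase that binds ribosomes, fell by 0.90 (adjusted p = 2.4e-10), which is short of 2-fold. FUN12, read divergently from RBG1 across 274 bases of shared intergenic sequence (R64 chromosome I, 76153 to 76426), was at -0.05 (adjusted p = 0.53). These 4 genes were at 0.21 (ECM1), 0.53 (RBG1), 0.66 (EFB1) and 0.87 (FUN12) in nascent cells.

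Line #9 against WT, which shares the same WT libraries, gave 3 members at least 2-fold higher and 8 lower. This is 3.09% and 8.25% of the members, against 1.74% and 4.94% of all tested genes. Without the fold limit 35 (36.1%) were higher and 23 (23.7%) lower, against 32.5% and 33.9% over all genes, and the median was 0.02. The higher genes were frames with few counts: YAL016C-A (2.16 ± 0.21, adjusted p = 3.5e-07), YAL042C-A (1.29 ± 0.19) and YAL065C (1.11 ± 0.19), a FLO-related sequence of which 37.6% of windows are repeated. YAT1 and DFP1 rose by 0.81 and 0.84 in this line, short of 2-fold.

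The lower genes in line #9 were led by SEO1, which fell 4.99-fold (-2.32 ± 0.15, adjusted p = 3.3e-09). CYS3 (YAL012W, 130799 to 131983), the cystathionine gamma-lyase that makes cysteine, had 4769, 4503 and 4609 counts in WT, 7409, 9419 and 7664 in nascent cells, 2452, 2695 and 2131 for line #6 and 1860, 2446 and 2496 for line #9. It was thus at the median of the chromosome in nascent cells (0.73) and below WT in both lines, by 0.94 in log2 (#6, adjusted p = 7.8e-10) and 1.21 (#9, adjusted p = 1.6e-10). LDS1 (-1.15), SEN34 (-1.04) and KIN3 (-1.03) also fell, and each was short of 2-fold without 1 or 2 of the libraries in turn (LDS1 -0.99 without line #9 library 1, KIN3 -0.98 without line #9 library 3, SEN34 -0.97 at the least, without WT library 1 or line #9 library 2). The remaining 3 had few counts. PAU8 had 4, 9 and 7 counts in WT and 0, 5 and 0 in line #9, TDA8 had 2, 3 and 5 and then 0, 0 and 1, and YAR073W had 23, 39 and 50 and then 0, 21 and 16. PAU8 and TDA8 each lost the call in 6 of 18 alternatives, all of them with 1 library left out.

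**Figure D5:**
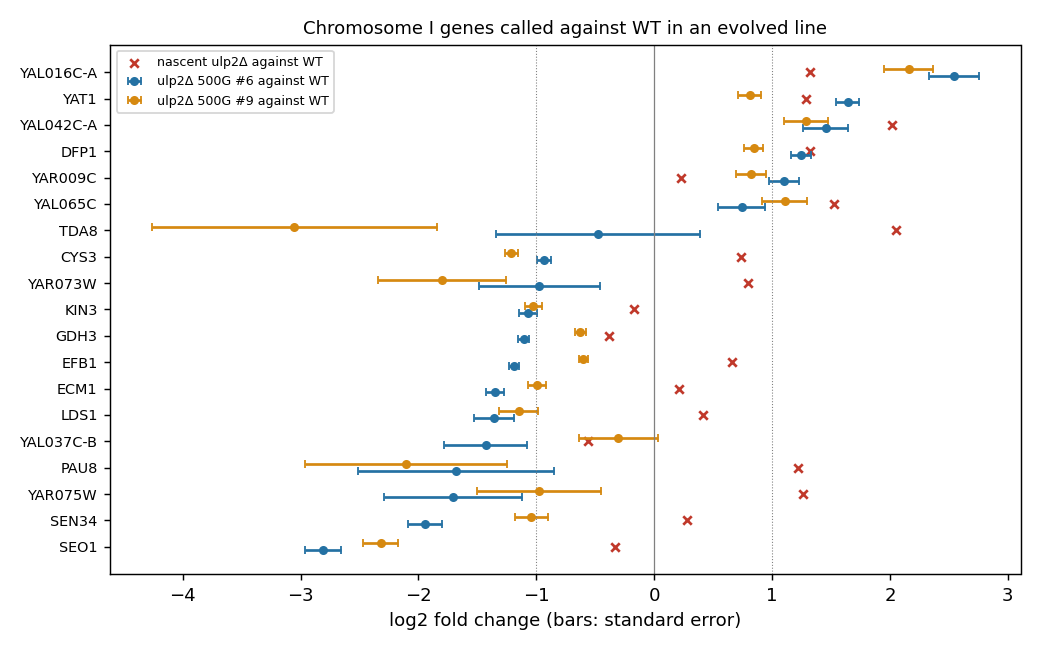
Log2 fold change over WT of the 19 chromosome I genes called in line #6 or line #9, with standard errors as bars, and the nascent value of each gene as a cross. Dotted lines mark 2-fold. For line #6, SEO1 (-2.81) and SEN34 (-1.95) lie farthest to the left, and YAL016C-A (2.54) and YAT1 (1.64) farthest to the right.

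The lines were compared with each other directly, which uses neither the WT nor the nascent libraries. No member was called 2-fold higher in line #6 (2.07% of all tested genes were), 0 at an unadjusted p under 0.05 and 0 in DESeq2, and 3 were called lower (3.09%, against 2.35%). Without the fold limit 27 were higher and 23 lower in line #6 (28.2% and 29.4% over all genes). The 3 were YAR047C, YAL037C-B and YAR053W, which are described with the closing values. Among genes with a known role, YAT1 was higher in line #6 by 0.83 ± 0.10 (adjusted p = 2.7e-06), FRT2, a membrane protein of the endoplasmic reticulum, by 0.66 ± 0.05 (1.1e-08), BDH1 by 0.62 ± 0.04 (2.6e-09) and GIP4 by 0.62 ± 0.05 (1.4e-08). SEN34 was lower in line #6 by 0.91 in log2 (adjusted p = 6.7e-05), EFB1 by 0.59 (5.9e-09) and GDH3 by 0.48 (5.3e-07). By position in nascent cells, the median line #6 over line #9 difference was -0.28 for the 11 genes below, 0.04 for the 63 that followed and 0.20 for the 23 above.

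Regulatory sequence upstream of the start codon is shown for 3 members as examples: RBG1 and CYS3, which were lower than WT in both lines, and ADE1, which was next to the lower limit in nascent cells. It was taken from the RefSeq R64 genome as 250 bases before and 50 after the start, with matches in capitals. In RBG1 the capitals mark the PAC core (GATGAG) and the RRPE core (AAAATTTT), elements found upstream of many ribosome assembly genes. In CYS3 they mark CACGTG, the E-box bound by Cbf1, a factor of methionine and sulfur metabolism genes. In ADE1, a purine synthesis gene that was at 0.28 in nascent cells and near WT in both lines, they mark TGACTC or its complement GAGTCA, the core bound by Gcn4 and Bas1.
RBG1, chrI:76103-76402, minus strand: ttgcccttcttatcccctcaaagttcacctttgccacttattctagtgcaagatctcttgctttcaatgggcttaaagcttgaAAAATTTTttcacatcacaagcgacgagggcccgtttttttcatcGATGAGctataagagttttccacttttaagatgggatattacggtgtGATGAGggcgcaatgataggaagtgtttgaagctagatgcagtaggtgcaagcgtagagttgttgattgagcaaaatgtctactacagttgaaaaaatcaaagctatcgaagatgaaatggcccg
CYS3, chrI:130549-130848, plus strand: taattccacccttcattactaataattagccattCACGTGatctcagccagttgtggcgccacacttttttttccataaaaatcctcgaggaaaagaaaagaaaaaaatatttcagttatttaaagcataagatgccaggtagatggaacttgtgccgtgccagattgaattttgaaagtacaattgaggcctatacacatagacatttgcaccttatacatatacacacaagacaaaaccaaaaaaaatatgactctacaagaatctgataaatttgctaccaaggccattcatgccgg
ADE1, chrI:169125-169424, plus strand: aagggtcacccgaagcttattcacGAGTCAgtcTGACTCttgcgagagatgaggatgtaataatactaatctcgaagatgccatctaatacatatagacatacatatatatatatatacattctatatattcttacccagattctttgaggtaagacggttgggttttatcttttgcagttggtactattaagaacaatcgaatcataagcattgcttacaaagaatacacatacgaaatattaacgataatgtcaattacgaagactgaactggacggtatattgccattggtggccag

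Both strands of 6001 such windows were searched, 81 of them of tested members. The PAC core was in 25.9% of the member windows and 20.4% of all, the RRPE core in 8.64% and 9.03%, the E-box in 3.7% and 2.92%, and TGACTC in 11.1% and 7.98%. PAC and RRPE cores were found together in 263 windows (4.38%). The cores marked in RBG1 are also in the window of FUN12, since the windows cover the same intergenic bases. FUN12 has a further PAC core 39 bases after its start, which the window of RBG1 does not reach. RBG1 and FUN12 had log2 fold changes of -0.90 and -0.05 in line #6. In CYS3 the E-box lies 216 bases before the start, and in ADE1 the matches begin 226 and 217 bases before it. STRE (AGGGG) was in 24.7% of member windows and 21.6% of all, the Ste12 element (TGAAACA) in 13.6% and 7.5%, and the forkhead core (GTAAACA) in 8.64% and 6.55%. Of the 10 annotated genes below the chromosome none had the E-box, TGACTC or the forkhead core, 3 had the PAC core and 2 the RRPE core. Of the 55 that followed, 3 had the E-box, 7 TGACTC, 5 the forkhead core, 13 the PAC core and 3 the RRPE core. Of the 16 above, none had the E-box, 2 each had TGACTC, the forkhead core and the RRPE core, and 5 the PAC core. With 10 windows and such low shares over all windows, the absences below the chromosome say little.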

How the data were processed

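Members, lists and tests were chosen with earlier results of these data known. The deposited matrix holds raw counts per gene, which the authors made from paired-end reads with Trim Galore 0.5.0, HISAT2 2.1.0 and StringTie 1.3.3b, and tested with DESeq2 1.22.1. The use of strand, the treatment of reads that map to several places and the step from coverage to counts are not given in the sources used here. In all, 6 features with no gene name (0.0826 to 0.173% of counts) were left out.

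Here the counts were fitted in R 4.3.3 with edgeR 4.0.16 (TMM, filterByExpr, quasi-likelihood test, all 12 libraries in one fit), with p-values adjusted by Benjamini-Hochberg over 6372 genes and a call at an adjusted p under 0.05 and a 2-fold difference. On simulated data the script was tested before use. CPM values use TMM-scaled library sizes. Named genes were the 8 farthest from the members' median on each side (mean of at least 50 counts), the 2 nearest each limit, up to 5 called genes per tested comparison and direction (mean of at least 50 counts, no overlap of ranges), the complex subunits and the 4 members highest per length in WT. Other genes named were chosen after their values were seen. Alternatives were DESeq2 1.42.0, its size factors, library totals, scaling by other chromosomes, other filters and limits, each library left out, a replicate block, and members without overlaps, repeats or low counts.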

Additional observations from a re-analysis of the deposited data

Results flagged for a closer look

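The following genes had different levels in the 2 evolved lines by the direct comparison (edgeR, adjusted over all tested genes). YAR047C was lower in line #6 than in line #9 by a log2 of -1.06 (adjusted p = 3.4e-05), with 54, 59 and 56 counts in line #6, 108, 158 and 137 in line #9, 78, 69 and 79 in WT and 113, 166 and 113 in nascent cells, and it stayed past 2-fold in all 19 alternatives that gave a value. YAL037C-B was at -1.13 (adjusted p = 0.013), with 32, 40 and 34 counts against 76, 151 and 37, and without line #9 library 2 it was at -0.63 (adjusted p = 0.12, the highest of a range from 0.000119). YAR053W was at -1.18 (adjusted p = 0.039), with 3, 8 and 9 counts against 13, 22 and 17, and lost the call in 7 of 19 alternatives (adjusted p 0.0246 to 0.155). None of these 3 has an entry in the annotation used.

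BDH1 and ERP1 moved in opposite directions from WT in the 2 lines. BDH1 rose by 0.37 in line #6 and fell by 0.24 in line #9 (a difference of 0.62). ERP1, a p24 cargo receptor subunit, fell by 0.40 in line #6 and rose by 0.11 in line #9 (a difference of -0.51, adjusted p = 1.0e-07), where its rise over WT had an adjusted p of 0.036 and its libraries overlapped those of WT. That rise lost its call without WT library 2 or 3, without line #9 library 2 or 3, with library totals, with the replicate block and with only the libraries compared (adjusted p up to 0.157).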

How the results depend on the processing

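The nascent shift of the chromosome (0.82) was 0.77 to 0.85 over the alternatives and 0.79 to 0.87 with 1 library left out, the mean library shift (0.83) 0.81 to 0.86 with 1 left out, and the complex gap (0.78) 0.73 to 0.80. Relative to nascent cells, line #6 (-0.90) ranged from -0.94 to -0.89 and line #9 (-0.91) from -0.92 to -0.87 with 1 library left out, and the mean shifts of the lines against WT from 0.0072 to 0.077 and 0.036 to 0.073. Leaving out 1 library, 8 to 12 members lay below and 20 to 25 above, 5 to 6 were higher and 8 to 10 lower in line #6, 3 to 4 higher and 6 to 8 lower in line #9, and 0 to 1 higher (1 without line #6 library 1) and 1 to 3 lower (1 without line #9 library 2) in line #6 against line #9.

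At a limit of 0.75, 6 members lay below and 11 above. At 1.5-fold 13 were higher and 15 lower in line #6, 8 higher in line #9, and 4 higher and 5 lower between the lines. With no fold limit the numbers were 38, 26, 35, 23, 27 and 23. With a mean of at least 100 counts 7 lay below, line #9 had 1 higher and 5 lower, the lines differed in 0 lower, and line #6 was at 0.15 from WT and -0.84 from nascent cells. Without overlapping or unannotated genes (79 tested) line #6 had 3 higher, line #9 1 higher and the lines 0 lower, with 0.14 from WT and -0.81 from nascent cells. With no filter line #6 was at 0.019 from WT and line #9 at -0.87 from nascent cells, which was also -0.87 with the 6 genes put back. Chosen after seeing the data, the members of unique sequence (74 tested) had 7 below, a mean nascent shift of 0.78, 2 higher in line #6, 0 higher in line #9, 0 lower between the lines and -0.81 for line #6 from nascent cells. Those of at least 50 counts in WT (79 tested) had a nascent shift of 0.77 (0.77 as the mean over libraries), 3 higher in line #6, 0 higher and 5 lower in line #9, and -0.81 and -0.84 from nascent cells.

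The replicate numbers do not pair the libraries (18 same-number correlations from -0.14 to 0.11), and with the replicate block 5 members were higher and 9 lower in line #6, 3 and 8 in line #9, and 0 and 2 between the lines. Of 172 member differences with an adjusted p under 0.05, none changed sign in 3423 recomputed values, and 127 of these values were no longer under 0.05. Of 2311 values for the other 119, 87 changed sign, none of them with an adjusted p under 0.05. Depth limits the 18 members under 50 counts in WT: the calls of PAU8, TDA8, YAR053W and YAR075W were each lost with some single libraries left out.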
